A study of Mus musculus with 12 samples.

Results

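Gene expression of differentiated 3T3-L1 cells carrying a hairpin against Fto was set against that of differentiated cells carrying a scrambled control hairpin. The libraries were chosen by their titles, which gave 2 libraries of shFTO at the differentiation stage (Diff) and 2 of shScram at the same stage, 4 of the 12 libraries of these lines. 3T3-L1 is a mouse fibroblast line that stores fat in lipid droplets after hormonal induction. Cells of both lines had been kept 2 days past confluence, received an induction medium with IBMX, dexamethasone and insulin (MDI) for 3 days and were then fed with 10 μg/ml insulin until they resembled mature adipocytes. Both lines carried a lentiviral hairpin and had been selected with puromycin, so the control shares the vector and the drug. Which of the Fto hairpins the sequenced line carried is not named in the sources used here, each condition is a single selected line, and nothing says that the libraries of a group came from separate cultures, so the p-values measure only the spread between these libraries. The treatment entry of replicate 1 of shScram at Diff names Fto knockdown, against its title, and counts are therefore also given without it.

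FTO removes methyl groups from N6-methyladenosine (m6A) and related marks in RNA. In the 3T3-L1 model, induction is followed by a round of cell division, the mitotic clonal expansion (MCE), after which Pparg and the C/EBP factors switch on the genes of fatty acid uptake, triglyceride storage and adipokine secretion. Preadipocytes, in contrast, are rich in collagens and other matrix proteins, many of which decline as fat cells form. The question asked of these libraries was which functions differ between the lines once differentiation is over.

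Values are TPM, which give each gene's transcripts per length as a share of the whole library. Levels can thus be compared between genes, but the number of reads behind a value is unknown. Fto itself, the check of the labels, held 73.5 and 70.8 TPM with shScram and 7.47 and 7.05 TPM with shFTO. Both shFTO values lie far below both shScram values, including that of the library with the conflicting entry (log2 fold change -3.15 with a standard error of 0.0949, adjusted p = 2.34e-06 by limma). With 2 libraries against 2, an exact permutation test cannot give a p below 0.333, and all tests below are therefore from limma on log2(TPM + 1), fitted over all genes. Fold changes are on that scale, on which low genes appear to change less than they do. A value in parentheses after a gene is its log2 fold change of shFTO over shScram (n = 2 in each group), with standard errors of 0.0699 to 0.347 over the named genes, and rose or fell is written of genes with a limma adjusted p under 0.05. The correlation of log2(TPM + 1) across genes, which are not independent replicates, was 0.991 between the shFTO libraries and 0.990 between the shScram libraries, against 0.933 to 0.940 between the groups.

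Of the 55487 genes in the table, 14900 reached a TPM of 1 in 2 or more of these 4 libraries and were tested. The adjusted p was under 0.05 for 6771 genes (45.4% of those tested), of which 3745 (25.1%) were higher and 3026 (20.3%) lower in shFTO. These shares are the background against which each gene group is read. A fold change over 2 was reached as well by 1105 higher genes (7.42%) and 683 lower genes (4.58%). The shFTO and shScram values did not overlap for 74.7% of the tested genes. Without replicate 1 of shScram, 3744 genes were higher and 2806 lower. Either shFTO library mattered more, with 2145 higher and 1544 lower genes without replicate 1 and 1869 and 1456 without replicate 2. The numbers past 2-fold moved less, between 999 and 1197 higher and between 631 and 739 lower genes with 1 library left out.

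**Figure D1:**
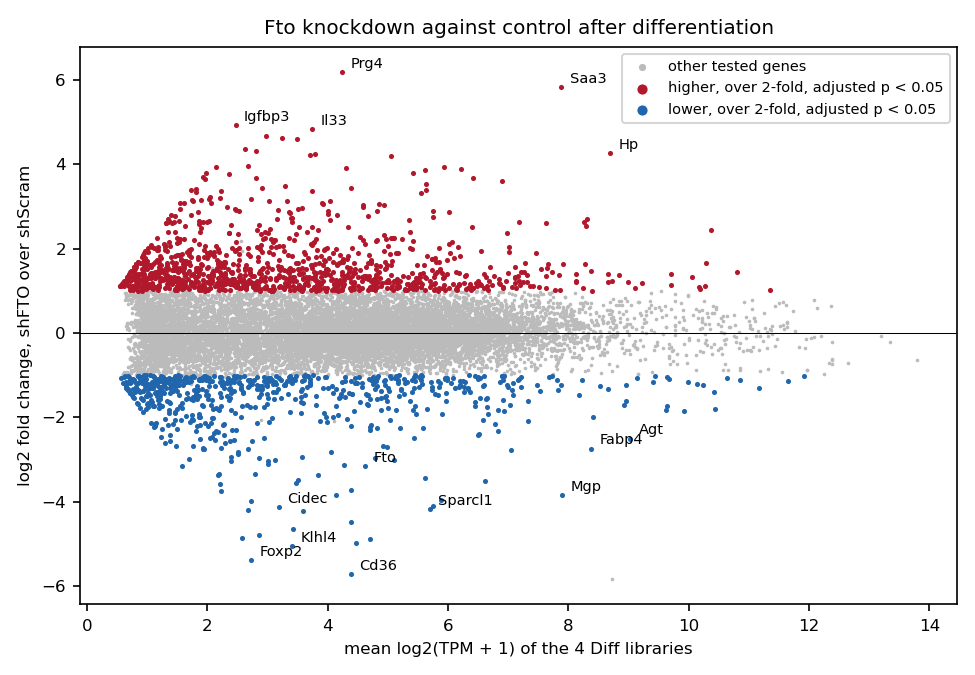
Log2 fold change of shFTO over shScram at Diff (vertical axis) against mean log2(TPM + 1) of the 4 libraries (horizontal axis) for 14900 tested genes, with genes past the adjusted threshold and over 2-fold coloured by direction. The 1105 higher genes outnumber the 683 lower genes, and among the coloured genes Prg4 and Saa3 lie at the top, Cd36 and Foxp2 at the bottom.

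The far ends of the ranking held secreted proteins and enzymes of fat cells. Prg4, which encodes the lubricating proteoglycan lubricin, held 1.40 and 1.06 TPM with shScram and 157 and 164 TPM with shFTO, and its fold change was the highest (6.18). Saa3, a serum amyloid A of the acute phase, held 31.6 and 29.1 TPM with shScram and 1949 and 1619 TPM with shFTO. Next came Igfbp3, an IGF-binding protein that was listed at 0 in both shScram libraries and at 29.9 and 29.5 TPM with shFTO. The other genes among the 12 highest were Il33, Igf2, Pde3b, Fmo2, Syt13, Il11, Hp, Col28a1 and Col12a1, with log2 fold changes from 4.23 to 4.83. At the other end, Cd36, the fatty acid translocase of the cell surface, held 148 and 151 TPM with shScram and 2.71 and 1.24 TPM with shFTO. Foxp2, a forkhead transcription factor, was at 38.3 and 45.7 TPM with shScram, at 0.0464 TPM in replicate 1 of shFTO and listed at 0 in replicate 2. Also among the 12 lowest were Klhl4, Abi3bp, Aldh3a1, Fam107a, Thrsp, Sult1a1, Cfd, Sis and Sparcl1, from -5.06 to -4.18. The rule for naming these genes required groups that do not overlap, so their separation is not a result.

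Among the transcription factors of fat cell formation, more members fell than rose. Of 21 tested factors, 10 fell and 6 rose, with a median log2 fold change of -0.34 beside 0.03 over all tested genes (with 1 library left out, 3 to 6 rising, the fewest without replicate 2 of shFTO and 6 to 9 falling, the fewest without replicate 1 of shFTO). Srebf1, which drives fatty acid synthesis, held 85.9 and 78.0 TPM with shScram and 42.4 and 44.1 TPM with shFTO (-0.90). Rxra, the partner of PPARγ on DNA, fell by 0.81 and Stat5a, which acts early in adipogenesis, fell by 0.92 on the log2 scale, beside Pparg with -1.25. Nr1h3, the oxysterol receptor LXRα, held 11.9 and 10.3 TPM with shScram and 4.37 and 6.90 TPM with shFTO, and its call was lost without replicate 1 of shFTO. The factors did not move together. Cebpb, an early factor of induction, held 388 and 323 TPM with shScram and 574 and 623 TPM with shFTO and rose (0.75), and Klf9 rose from 53.9 to 107 TPM (means). Cebpa did not pass the test, with 5.01 and 3.77 TPM with shScram and 5.77 and 5.19 TPM with shFTO (0.28, adjusted p = 0.245). In these bulk libraries, fewer cells of a type and less RNA per cell cannot be told apart.

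Genes for bringing fatty acids into the cell went both ways, more of them down than up. Of 15 tested genes 8 fell and 4 rose (median -0.67; 7 to 9 fell with 1 library left out). The binding protein Fabp5 held 194 and 173 TPM with shScram and 53.7 and 53.2 TPM with shFTO (-1.76), beside -2.74 for Fabp4. Acsl1, the acyl-CoA synthetase that feeds fat storage, held 62.0 and 68.2 TPM with shScram and 16.1 and 19.5 TPM with shFTO (-1.82). The relatives Acsl3 (1.34) and Acsl4 (1.18) rose instead, and Acsl4 held 46.8 and 53.03 TPM with shScram and 109.8 and 118 TPM with shFTO. Vldlr, a receptor for triglyceride-rich lipoproteins, rose as well (1.03). Lpl, the lipase that frees fatty acids from these lipoproteins, stayed close, at 303 and 333 TPM with shScram and 282 and 269 TPM with shFTO. Its groups did not overlap, but it did not pass the test (-0.21, adjusted p = 0.0716; it passed without replicate 1 of shScram). Gpihbp1, which anchors the lipase, was at 2.03 and 1.72 TPM with shScram and listed at 0 in both shFTO libraries.

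Genes that build and hold triglyceride were mostly lower in shFTO. In triglyceride synthesis 8 of 15 tested genes fell and 3 rose (median -0.35; with 1 library left out, 1 to 3 rising, the fewest without either shFTO library and 6 to 8 falling, the fewest without replicate 2 of shFTO). Gpd1, which makes the glycerol backbone from a glycolytic intermediate, held 49.9 and 40.6 TPM with shScram and 3.82 and 3.07 TPM with shFTO (-3.38). Agpat2, the acyltransferase of the next steps, held 101.9 and 84.5 TPM with shScram and 25.1 and 26.6 TPM with shFTO (-1.81), and Dgat1, which attaches the last fatty acid, fell less (-0.79). Of the 14 tested genes of droplet coat and lipolysis, 9 fell and 3 rose (median -0.65). Cidec, which fuses droplets into large ones, held 37.3 and 36.5 TPM with shScram and 0.932 and 1.46 TPM with shFTO (-4.12). Plin1, the coat protein of mature droplets, held 36.9 and 37.1 TPM with shScram and 2.65 and 2.21 TPM with shFTO (-3.47), whereas Plin2, the coat protein of many cell types, fell by 0.69 and Plin4, a further coat protein, by 1.62 on the log2 scale. Both sides of lipolysis were lower, since the lipases Pnpla2 (-1.35) and Lipe (-1.28) fell together with G0s2, an inhibitor of Pnpla2 (-2.03). Pde3b, the phosphodiesterase through which insulin restrains lipolysis, went the other way, with 0.735 and 1.09 TPM with shScram and 44.5 and 46.8 TPM with shFTO (4.61).

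Genes of fatty acid synthesis were more often higher than lower. Of 16 tested genes of fatty acid synthesis and desaturation, 9 rose and 3 fell (median 0.42). The desaturases Fads1 and Fads2 rose by 1.08 and 1.13, and the elongase Elovl5 by 0.99, while Scd1 held 99.0 and 104 TPM with shScram and 146 and 150.5 TPM with shFTO (0.54). Thrsp, a lipogenic gene of fat cells, held 52.5 and 52.0 TPM with shScram and 1.37 and 0.939 TPM with shFTO, and Fasn, the fatty acid synthase, held 139.9 and 121 TPM with shScram and 76.7 and 85.8 TPM with shFTO (-0.67). Cholesterol synthesis and uptake moved largely one way, with 20 of 24 tested genes higher and 1 lower (median 0.78; 13 to 22 higher with 1 library left out, fewest without replicate 2 of shFTO). The higher members lay at several steps of the pathway, but 3 tested enzymes of it did not pass the test. Sqle, the squalene epoxidase, held 27.4 and 27.1 TPM with shScram and 59.4 and 61.3 TPM with shFTO (1.12). Mvd and Fdps, which act before it, rose by 1.32 and 1.18, and Stard4, a cholesterol carrier, by 1.24. The lower member was Cyp51, the lanosterol demethylase, with 15.1 and 17.2 TPM with shScram and 8.19 and 7.42 TPM with shFTO (-0.96).

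**Figure D2:**
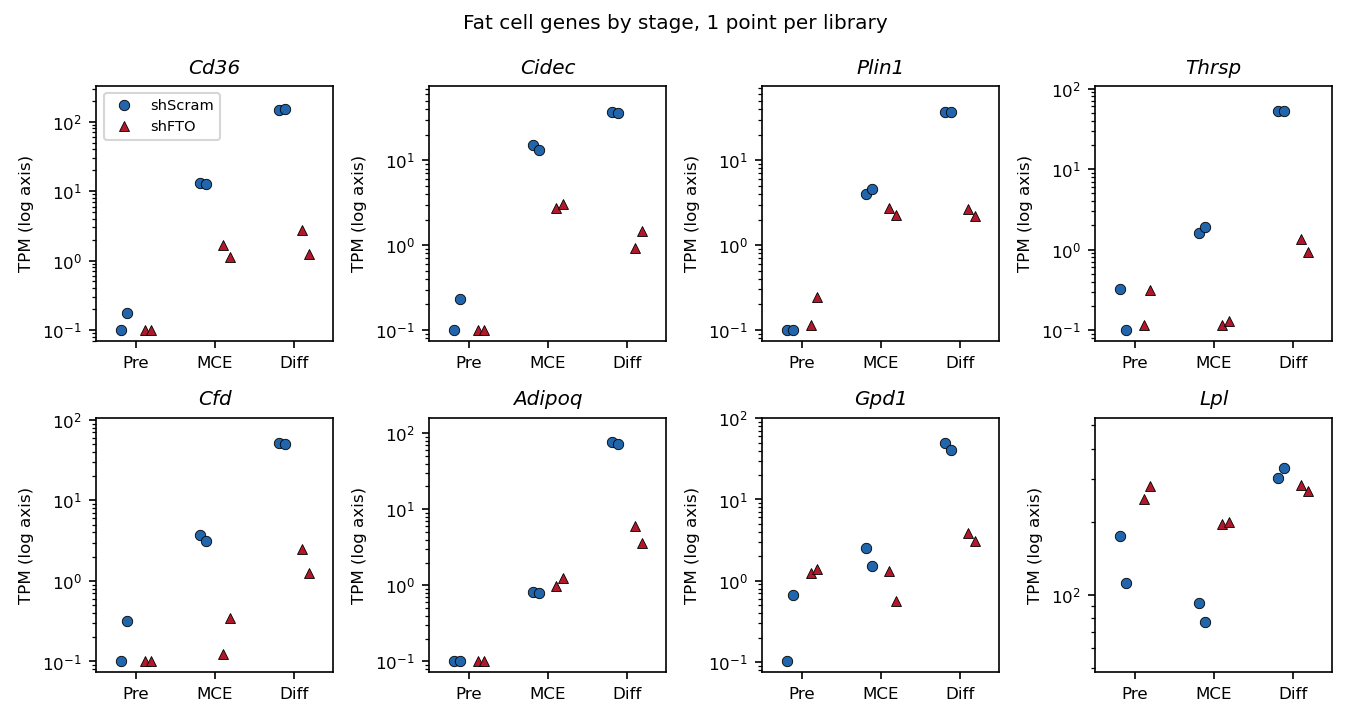
TPM (log axis) of 8 fat cell genes in each of the 12 libraries by stage, with circles for shScram and triangles for shFTO and 1 point per library; values under 0.1 TPM are drawn at 0.1. At Diff the shFTO points of Cd36, Cidec, Plin1, Thrsp, Cfd, Adipoq and Gpd1 lie below the shScram points by log2 fold changes of 3.38 or more in size, while those of Lpl lie close together.

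Adipokine and receptor genes went both ways. Of 14 tested adipokine and receptor genes, 7 fell and 5 rose (median -0.26). Cfd, the serine protease adipsin, held 52.3 and 49.6 TPM with shScram and 2.50 and 1.25 TPM with shFTO (-4.21), and Adipoq, which encodes adiponectin, changed by -3.72. Agt, the precursor of angiotensin, held 1308 and 1182 TPM with shScram and 218 and 220.0 TPM with shFTO (-2.50), and Rarres2, which encodes chemerin, held 131 and 135 TPM with shScram and 49.2 and 49.5 TPM with shFTO (-1.41). In insulin signalling 8 of 18 tested genes rose and 4 fell (with 1 library left out, 5 to 7 rising, the fewest without replicate 2 of shFTO and 2 to 4 falling, the fewest without replicate 1 of shFTO). Pik3r1, the regulatory subunit of PI3-kinase, fell (-1.15). Grb14, which blocks the receptor's kinase, rose from 12.1 to 58.9 TPM (2.19). Slc2a1, the glucose transporter of undifferentiated cells, held 66.6 and 57.4 TPM with shScram and 135 and 141 TPM with shFTO (1.14), while Slc2a4, the insulin-responsive transporter, stayed below the filter at 0.896 and 1.18 TPM with shScram and 0.164 and 0.0996 TPM with shFTO. Ucp1, the uncoupling protein of brown fat, was listed at 0 in all 4 libraries. Of 14 listed genes of brown and beige fat only 4 were tested, of which 1 rose and 1 fell. The higher one was Dio2, which activates thyroid hormone, with 0.745 and 0.499 TPM with shScram and 23.3 and 25.1 TPM with shFTO (3.96).

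Several groups of enzymes that burn fuel in mitochondria had more lower than higher members, with small changes. Of 25 tested genes of fatty acid oxidation, 17 fell and 2 rose (median -0.36; 9 to 18 fell with 1 library left out, the fewest without replicate 2 of shFTO). Acadm, the medium-chain dehydrogenase, held 338 and 324 TPM with shScram and 73.7 and 81.7 TPM with shFTO (-2.08) and was the 1 member to fall over 2-fold. Hadh and Acaa2, which act in the last steps of each round, changed by -0.85 and -0.82. Breakdown of branched-chain amino acids, which feeds lipid synthesis in fat cells, had 12 of 22 tested genes lower and 3 higher, but 4 to 12 lower with 1 library left out (replicate 1 of shFTO gives the lowest). Mccc2 (-0.89) and Aldh6a1 (-0.81) were among the lower ones, and the cytosolic transaminase Bcat1 rose (1.77). In the citric acid cycle 9 of 17 fell and 4 rose (with 1 library left out, 0 to 4 rising, the fewest without replicate 2 of shFTO and 5 to 10 falling, the fewest without either shFTO library), and Idh3a, a subunit of the rate-limiting dehydrogenase, held 64.2 and 66.6 TPM with shScram and 31.2 and 33.1 TPM with shFTO (-1.0). The nuclear-encoded respiratory chain was mixed, with 12 of 37 lower and 4 higher (with 1 library left out, 0 to 11 rising, the fewest without replicate 2 of shFTO and 4 to 13 falling, the fewest without either shFTO library), and the sign of its median depends on the scaling.

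The transcripts of all 13 mitochondrially encoded proteins fell in shFTO (median -0.91), with 12 of them lower after quantile normalization, and 7 to 13 passed with 1 library left out (replicate 1 of shFTO gives the lowest). Mitochondrial transcripts made up 7.40% and 9.17% of the TPM total in shScram and 4.61% and 4.58% in shFTO. mt-Nd2, a subunit of complex I, held 3290.1 and 4011 TPM with shScram and 1419 and 1503 TPM with shFTO (-1.31). TPM is a share of a fixed total, and with the totals rescaled without mitochondrial genes 3370 genes were higher and 3477 lower. Glycolysis lay in the opposite direction, with 18 of 20 tested genes higher (median 0.48), though 6 to 18 with 1 library left out and the lowest number without replicate 2 of shFTO. Pfkfb3, which makes the activator of phosphofructokinase, held 5.55 and 5.76 TPM with shScram and 20.1 and 21.6 TPM with shFTO (1.72). Pkm, the pyruvate kinase, held 1572 and 1425 TPM with shScram and 2419 and 2534 TPM with shFTO (0.73), and Slc16a3, an exporter of lactate, held 1.58 and 0.517 TPM with shScram and 13.7 and 14.8 TPM with shFTO (2.94). The lower member was Ldhb, the lactate dehydrogenase subunit that favours pyruvate, with -0.49, a call that was lost without replicate 2 of shFTO.

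Genes of cell division were higher in differentiated shFTO cells. Of 44 tested genes of mitosis, 40 rose and none fell, 21 of them over 2-fold, with a median of 0.97 and 35 to 41 higher with 1 library left out. Ube2c, the ubiquitin-conjugating enzyme that works with the anaphase-promoting complex, held 27.9 and 27.7 TPM with shScram and 109.8 and 121 TPM with shFTO (2.01). The mitotic kinases Aurka, Aurkb and Plk1 rose by 1.56, 1.90 and 1.45. Aurka held 10.8 and 10.5 TPM with shScram and 33.4 and 33.5 TPM with shFTO. Ccnb1, the mitotic cyclin, held 24.5 and 23.1 TPM with shScram and 42.4 and 51.7 TPM with shFTO (0.95), and Mki67, which encodes the proliferation marker Ki-67, held 10.3 and 12.7 TPM with shScram and 23.7 and 24.9 TPM with shFTO (1.03). Each of these genes had both shFTO values above both shScram values, and 74.7% of all tested genes had no overlap in either direction. DNA replication differed less, with 18 of 36 higher and 3 lower (median 0.31; with 1 library left out, 8 to 16 rising, the fewest without replicate 2 of shFTO and 1 to 2 falling, the fewest without either shFTO library). Rrm2, which makes deoxynucleotides, held 16.9 and 12.7 TPM with shScram and 35.9 and 39.5 TPM with shFTO (1.31), and Mcm5, of the replicative helicase, rose by 0.97. Of 45 tested replication-dependent histone genes, 22 were higher and none was lower (11 to 24 with 1 library left out, fewest without replicate 2 of shFTO). Their near-identical copies can share reads, so single histone genes are not named. Inhibitors of cycling rose in part as well, such as Cdkn2d, which blocks CDK4 and CDK6 (1.45), and Gadd45a, a stress gene (1.16), among 10 higher and 5 lower of 23 (with 1 library left out, 5 to 10 rising, the fewest without replicate 2 of shFTO and 3 to 6 falling, the fewest without replicate 1 of shFTO).

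Promoters of mitotic genes often carry the cell cycle homology region, a short element through which they are kept silent in resting cells. Its letters TTTGAA were searched on both strands of RefSeq promoter windows on GRCm38.p6, from 250 bases before to 50 after the gene start. They occurred in 27 of 37 mitosis genes with a window (73.0%), against 14.4% of the tested genes with a window and 17.7% of those higher over 2-fold. The letters CCAAT, searched on both strands in the same way, occurred in 28 of 37 (75.7%), against 43.8% and 43.6%. The short matches of 4 mitosis genes are shown because they lie upstream of the start, each 5′ to 3′ on the gene's strand with the element in capitals, which reads TTCAAA where it lies on the other strand.
Ube2c: ttgcaaTTCAAAcgcggg
Cdc20: ttgggtTTTGAAggagcc
Mki67: ttttggTTTGAAtcgggc
Espl1: gggataTTTGAAaggagg
On GRCm38.p6 these stretches lie, in turn, for Ube2c at chr2:164769894-164769911 (plus strand), Cdc20 at chr4:118437350-118437367 (minus strand), Mki67 at chr7:135716466-135716483 (minus strand) and Espl1 at chr15:102296260-102296277 (plus strand).
A match is a description of these letters and not of a bound factor.

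Genes of the interferon response were higher in shFTO. Interferon-stimulated genes are switched on through a complex that holds STAT2 and IRF9 after cells sense viral nucleic acid or interferon. Of 42 tested interferon-stimulated effectors, 34 rose, 25 of them over 2-fold, and 2 fell (median 1.08; 29 to 37 higher with 1 library left out). Rsad2, which encodes the antiviral enzyme viperin, held 0.170 and 0.575 TPM with shScram and 10.9 and 11.6 TPM with shFTO (3.17). Oas2, a sensor of double-stranded RNA, held 3.56 and 5.01 TPM with shScram and 43.9 and 41.3 TPM with shFTO (3.06). Isg15, the ubiquitin-like modifier, held 13.3 and 17.3 TPM with shScram and 111 and 94.9 TPM with shFTO (2.68). These are among the members with the largest changes, by which they were chosen, so the size of their change is not that of the group. The abundant membrane proteins Ifitm3 and Bst2 rose by 1.10 and 1.39, to 1688 and 451 TPM. Among the transducers, Stat2 held 27.1 and 33.9 TPM with shScram and 134 and 133 TPM with shFTO (2.1), and Irf7 (2.20) and Irf9 (1.10) rose too. The members that fell were Ifi204 (-0.57) and Samd9l (-0.70), the latter not without either shFTO library. Of 17 tested sensors of viral RNA and DNA, 9 rose and 2 fell (with 1 library left out, 5 to 9 rising, the fewest without replicate 1 of shFTO and 1 to 2 falling, the fewest without either shFTO library), with Zbp1, a sensor of Z-form nucleic acid (2.07), and Sting1, the adaptor of cytosolic DNA sensing (1.65), among the higher ones. The interferon genes Ifnb1 and Ifna4 were listed at 0 in all 4 libraries.

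The element bound by that complex, the ISRE, was searched as GAAANNGAAA on both strands of the same windows. It occurred in 18 of 31 interferon-stimulated effectors with a window (58.1%), against 3.84% of the tested genes with a window and 7.76% of those higher over 2-fold. Matches upstream of the start of 4 of them are shown with the element in capitals, read as TTTCNNTTTC where it lies on the other strand.
Isg15: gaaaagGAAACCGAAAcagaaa
Rsad2: tccaacTTTCATTTTCagaaaa
Bst2: gaaaatGAAACTGAAAggctgc
Stat2: ccctggTTTCAGTTTCctttcc
On GRCm38.p6 these stretches lie, in turn, for Isg15 at chr4:156200875-156200896 (minus strand), Rsad2 at chr12:26456557-26456578 (minus strand), Bst2 at chr8:71537581-71537602 (minus strand) and Stat2 at chr10:128270270-128270291 (plus strand).
The window of Ifi44, another member (3.09), held no such letters.

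**Figure D3:**
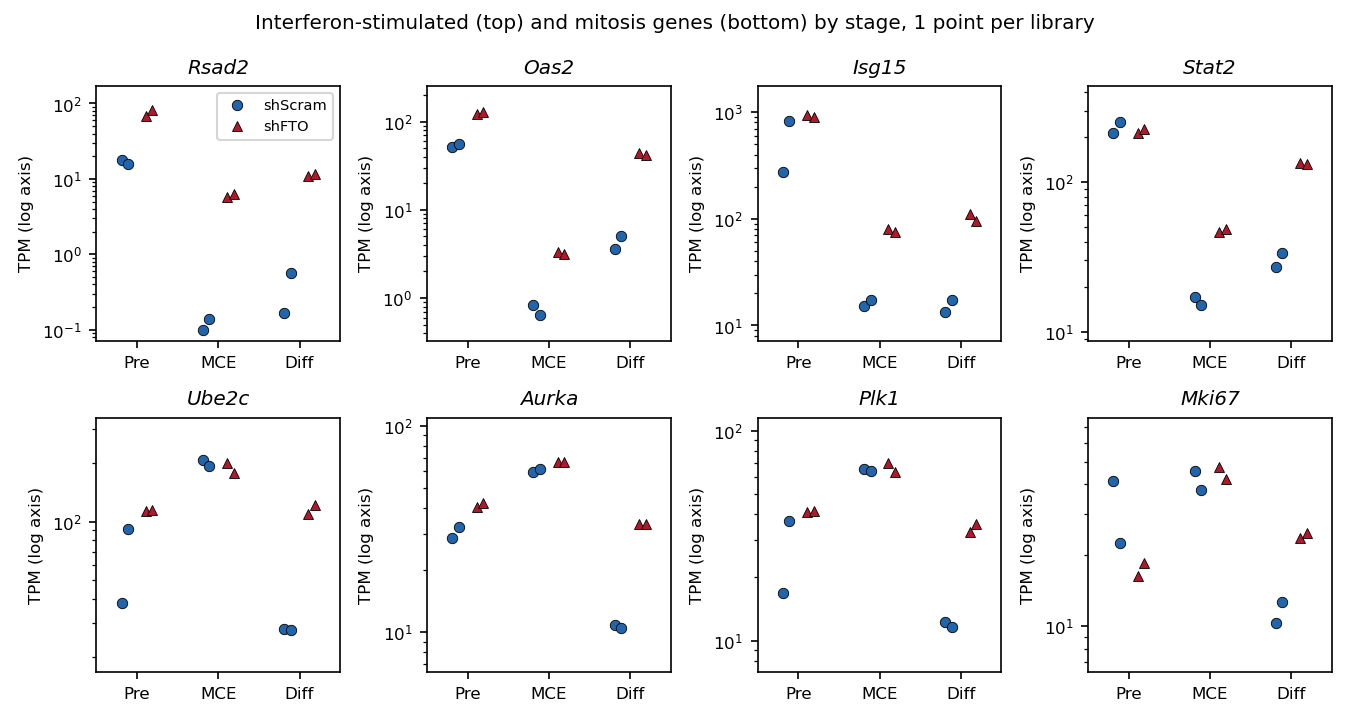
TPM (log axis) of 4 interferon-stimulated genes (upper row) and 4 mitosis genes (lower row) in each of the 12 libraries by stage, with circles for shScram and triangles for shFTO, 1 point per library; values under 0.1 TPM are drawn at 0.1. At Diff both shFTO points lie above both shScram points in all 8 panels, whereas at MCE the lines lie close together for Ube2c, Aurka and Plk1.

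Most genes of MHC class I antigen presentation were higher in shFTO. Of 18 tested genes 12 rose and 1 fell (median 0.56; 8 to 13 higher with 1 library left out). Psmb8, a subunit of the immunoproteasome, held 3.91 and 2.07 TPM with shScram and 25.4 and 28.4 TPM with shFTO (2.84), and Tap1, of the peptide transporter, held 16.4 and 18.9 TPM with shScram and 58.4 and 60.6 TPM with shFTO (1.70). The class I heavy chains H2-K1 and H2-D1 rose by 1.07 and 1.04, and as near-identical relatives they may share reads.

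Acute phase proteins, cytokines and chemokines had 18 of 29 tested genes higher, 17 of them over 2-fold, and 6 lower (median 1.19). Hp, which encodes the haemoglobin-binding haptoglobin, held 95.2 and 91.1 TPM with shScram and 1837 and 1794 TPM with shFTO (4.27). Il33, an alarmin cytokine, held 1.43 and 1.57 TPM with shScram and 63.6 and 77.0 TPM with shFTO (4.83). Il11, a cytokine of the IL-6 family, held 0.824 and 0.355 TPM with shScram and 31.2 and 29.8 TPM with shFTO (4.32). In each of these both shFTO libraries lay above both shScram libraries, as the rule that named them required, so this is no separate result. Socs3, which is induced by and restrains signalling of this family, held 34.8 and 33.3 TPM with shScram and 197 and 204 TPM with shFTO (2.52). Of 10 tested chemokines in the group, 7 rose and none fell, with Ccl2 at 63.4 and 52.4 TPM with shScram and 141 and 124 TPM with shFTO (1.19) and Ccl5 at 7.16 and 2.74 TPM with shScram and 47.5 and 47.5 TPM with shFTO (3.14). The abundant Cxcl12 did not pass, at 469 and 434 TPM with shScram and 436 and 443 TPM with shFTO (-0.04, adjusted p = 0.699 by limma, above 0 without replicate 1 of shScram), nor did Ccl9 (0.11, adjusted p = 0.419). Orm1, another acute phase protein, fell (-3.00), but its paralogues are near-identical and its reads may be shared. Complement was split, with 5 of 15 higher and 4 lower (with 1 library left out, 3 to 6 rising, the fewest without either shFTO library and 3 to 5 falling, the fewest without either shFTO library). C3, the central component, held 2653 and 2540.3 TPM with shScram and 755 and 737 TPM with shFTO (-1.80). C4b, of the classical pathway, rose (2.98), as did Serping1, the C1 inhibitor (3.08).

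Genes of the extracellular matrix were more often higher than lower in shFTO, with abundant members in both directions. Of 25 tested collagen chains, 17 rose and 2 fell (median 0.70; 12 to 18 higher with 1 library left out). The abundant fibrillar chain Col3a1 held 1863 and 1814 TPM with shScram and 3667 and 3825 TPM with shFTO (1.03) and its partner Col5a2 held 248 and 245 TPM with shScram and 641 and 668 TPM with shFTO (1.40). Col12a1, a chain that decorates fibrils, held 2.07 and 1.96 TPM with shScram and 52.8 and 58.4 TPM with shFTO (4.23). The 2 lower chains were Col11a1 (-1.37) and Col6a3 (-0.66). Among matrix glycoproteins and proteoglycans 25 of 40 rose and 9 fell, 17 and 6 of them over 2-fold. Fbn1, of the microfibrils, held 13.3 and 14.3 TPM with shScram and 139 and 155 TPM with shFTO (3.32), and Tnc, a tenascin of growing and wounded tissue, held 13.0 and 15.7 TPM with shScram and 148 and 170.2 TPM with shFTO (3.38). Sparc, a collagen chaperone, was among the most abundant, with 1104 and 1051 TPM with shScram and 2963 and 2895 TPM with shFTO (1.44). Other members fell. Mgp, the inhibitor of calcification, held 932 and 879.9 TPM with shScram and 68.3 and 56.5 TPM with shFTO (-3.84), and Sparcl1, the relative of Sparc, held 219 and 221 TPM with shScram and 11.1 and 11.4 TPM with shFTO (-4.18). The leucine-rich proteoglycans Aspn (-2.00) and Ogn (-1.85) fell, and Postn, which encodes periostin, held 1435 and 1534 TPM with shScram and 411 and 421 TPM with shFTO (-1.83).

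Enzymes that cut the matrix and their inhibitors also had more higher than lower members. Of 32 tested genes 18 rose and 8 fell (with 1 library left out, 11 to 18 rising, the fewest without replicate 2 of shFTO and 4 to 9 falling, the fewest without replicate 1 of shFTO). The inhibitors of metalloproteinases moved apart, with Timp1 at 83.8 and 75.0 TPM with shScram and 479 and 493 TPM with shFTO (2.60), Timp3 rising by 3.13, and Timp2 at 779 and 747 TPM with shScram and 318 and 332 TPM with shFTO (-1.23). The aggrecanase Adamts5 rose (3.03) and Adamts12 fell (-1.93). In the contractile group 9 of 20 rose and 4 fell (with 1 library left out, 2 to 4 falling, the fewest without either shFTO library), and Acta2, the smooth muscle actin of myofibroblasts, held 23.3 and 30.5 TPM with shScram and 82.6 and 83.9 TPM with shFTO (1.60). Integrins had 10 of 15 higher and 3 lower (with 1 library left out, 1 to 2 falling, the fewest without either shFTO library), such as Itga7 (2.22), a laminin receptor, and Itgb4 (-1.58).

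**Figure D4:**
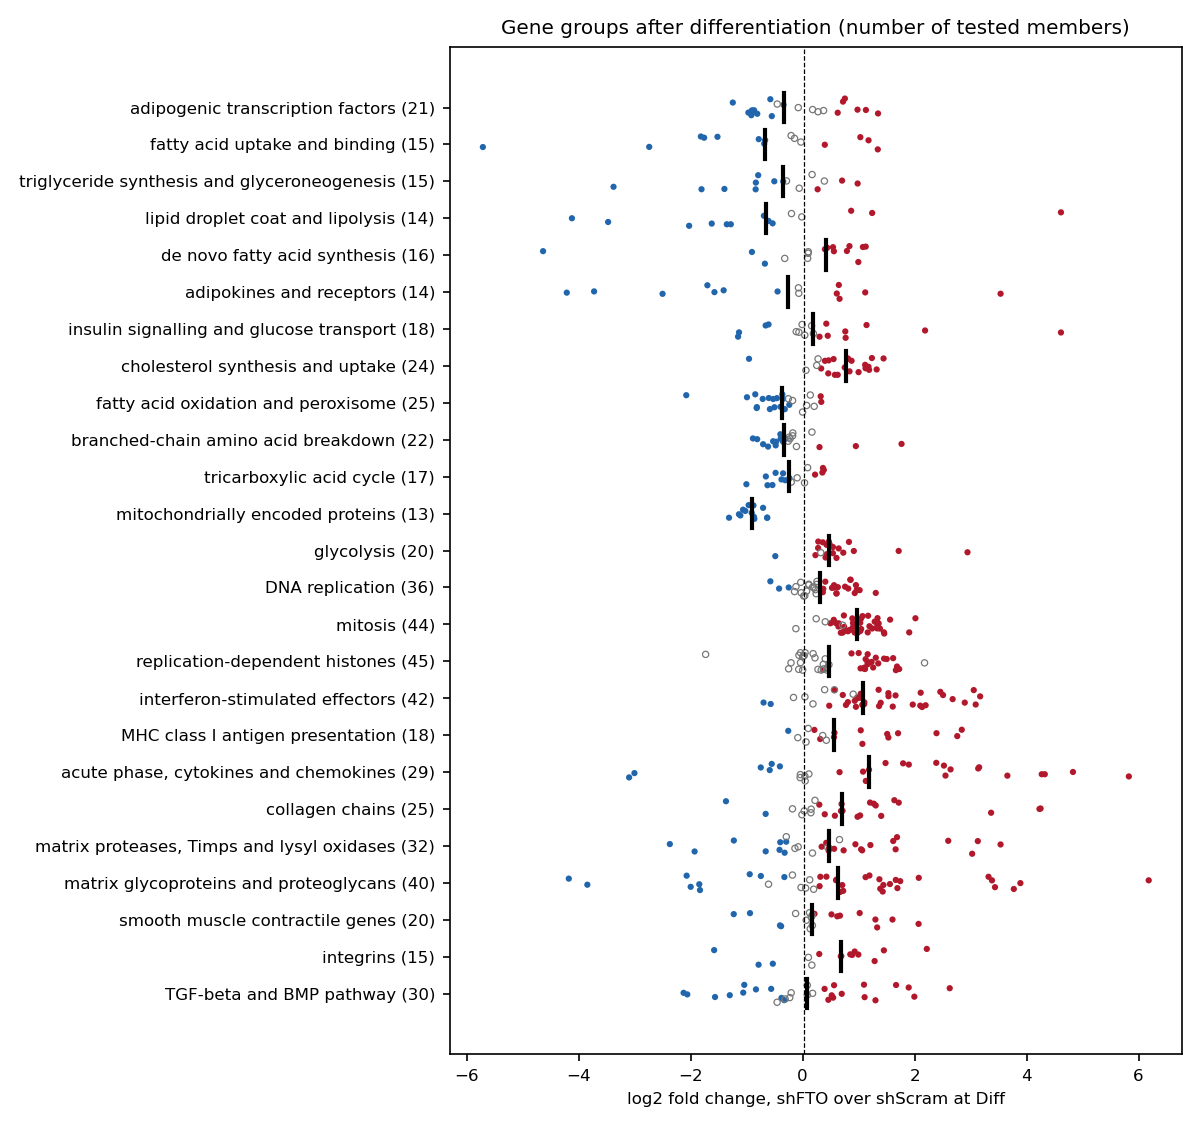
Log2 fold change of shFTO over shScram at Diff (horizontal axis) for the tested members of 25 gene groups (rows), with filled points for genes past the adjusted threshold, open points for the others and a bar at each group's median; the dashed line marks the median of all tested genes, 0.03. Mitosis, interferon-stimulated effectors and cholesterol synthesis lie mostly to the right, the mitochondrially encoded proteins wholly to the left, and both directions occur in the matrix groups.

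Surface markers of preadipocytes and stromal progenitors did not move together. Of 16 tested markers 7 rose and 4 fell (with 1 library left out, 2 to 4 falling, the fewest without replicate 2 of shFTO). Ly6a, which encodes the progenitor antigen Sca-1, held 135 and 114 TPM with shScram and 793 and 820.3 TPM with shFTO (2.69), and its neighbour in the Ly6 family Ly6c1 rose by 2.62. Thy1 held 232 and 239.6 TPM with shScram and 467 and 482 TPM with shFTO (1.00). Gas1, a growth arrest gene, fell (-1.05). Of the 10 markers named for mature adipocytes 9 passed the filter, and their summed level was 1597 and 1584 TPM with shScram and 482.8 and 447.1 TPM with shFTO. Fabp4 was the most abundant of them with shScram (876 and 836 TPM) and Lpl with shFTO (282 and 269 TPM). Lpl and Cebpa did not pass the test, and Cebpa was higher in both shFTO libraries. The 8 markers of preadipocytes or fibroblasts summed to 6795 and 6592 TPM with shScram and 6088 and 6420 TPM with shFTO, with Vim, the intermediate filament vimentin, the most abundant of them. Vim held 4155 and 4072 TPM with shScram and 2094 and 2238 TPM with shFTO (-0.93), and without it the sum was 2640 and 2520 TPM with shScram and 3994 and 4182 TPM with shFTO. All 6 other markers past the filter had both shFTO values above both shScram values, while 74.7% of all tested genes had no overlap in either direction. The differences varied in size, and Dlk1 was close, at 888 and 822 TPM with shScram and 899 and 909 TPM with shFTO. Both lines thus held many transcripts of fibroblasts at Diff, and those of mature adipocytes were present in both but lower in sum in shFTO. Defining markers of macrophages, endothelium and skeletal myoblasts were near 0. Those of macrophages (5 genes) summed to 1.68 and 1.98 TPM with shScram and 2.48 and 1.26 TPM with shFTO, with Adgre1 listed at 0 throughout. Those of endothelium (4) stayed at 0.691 TPM or less in sum and those of skeletal myoblasts (3) at 0.0948 TPM or less. The 6 markers of osteoblasts and chondrocytes summed to 70.7 and 68.6 TPM with shScram and 46.8 and 49.1 TPM with shFTO. Nearly all of that was Sox9, a transcription factor of cartilage, with 62.0 and 59.4 TPM with shScram and 29.9 and 29.6 TPM with shFTO (-1.01), and Runx2, a factor of bone, with 8.59 and 9.14 TPM with shScram and 16.8 and 18.9 TPM with shFTO (0.93), while Sp7, Bglap, Acan and Col2a1 were near 0. Cd14, a receptor of bacterial lipopolysaccharide that macrophages carry, nevertheless rose (5.13 and 5.76 TPM with shScram and 38.6 and 42.3 TPM with shFTO; 2.69), and Tnnt3, a troponin of fast muscle, held 27.0 and 40.4 TPM with shScram and 441 and 391 TPM with shFTO (3.61).

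Genes of signals that act on fat cell precursors went both ways. Over all tested genes 25.1% were higher and 20.3% lower, with a median of 0.03. The medians of the TGF-beta and BMP group (0.08) and the Wnt group (0.13) lay near it. In the TGF-beta and BMP pathway 13 of 30 tested genes rose and 10 fell (with 1 library left out, 8 to 13 rising, the fewest without replicate 2 of shFTO). The ligands Tgfb1 (1.67) and Inhba, which forms activin A (2.00), rose, as did Grem1, an antagonist of BMPs (1.89). Fst, which binds activin, held 171 and 167 TPM with shScram and 54.4 and 58.5 TPM with shFTO (-1.56), and Id1, a target of BMP signals, fell (-1.06). In the Wnt pathway 9 of 24 rose and 5 fell (with 1 library left out, 4 to 8 rising, the fewest without replicate 1 of shFTO and 3 to 4 falling, the fewest without replicate 1 of shFTO or replicate 2 of shFTO or replicate 1 of shScram), the secreted modulators Dkk3 (1.98) and Rspo3 (-1.92) in opposite directions. In the IGF system 6 of 13 rose and 4 fell (with 1 library left out, 2 to 4 falling, the fewest without either shFTO library). Igf2 held 1.36 and 0.0251 TPM with shScram and 37.5 and 39.4 TPM with shFTO (4.66), and H19, the noncoding RNA of the same imprinted locus, held 2.92 and 3.45 TPM with shScram and 43.3 and 40.9 TPM with shFTO (3.37). Igf2 shares exon sequence with another annotated gene on the same strand, so its value is uncertain.

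Of 22 tested genes for writers, erasers and readers of m6A, 9 fell, Fto among them, and 2 rose (median -0.23). These counts moved with the libraries used (with 1 library left out, 1 to 3 rising, the fewest without either shFTO library and 1 to 6 falling, the fewest without either shFTO library). Mettl14, of the methyltransferase complex, held 17.7 and 16.9 TPM with shScram and 11.2 and 11.9 TPM with shFTO (-0.54), and its call was lost without either shFTO library. Alkbh5, the other m6A demethylase, held 63.0 and 54.6 TPM with shScram and 96.2 and 103 TPM with shFTO and rose (0.75). Stress genes showed no single direction. In the unfolded protein and amino acid response 15 of 28 rose and 3 fell (with 1 library left out, 0 to 5 falling, the fewest without either shFTO library), with Atf4 at 0.62 and Chac1, its target that breaks down glutathione, at 1.41. Among Nrf2 antioxidant genes 9 rose and 8 fell of 28 (with 1 library left out, 4 to 9 rising, the fewest without replicate 2 of shFTO and 3 to 9 falling, the fewest without replicate 2 of shFTO), and the sign of their median depends on the scaling, with Hmox1, haem oxygenase, at 61.3 and 64.6 TPM with shScram and 269 and 254 TPM with shFTO (2.04) and Cat, the peroxisomal catalase, at 225 and 191 TPM with shScram and 39.6 and 38.0 TPM with shFTO (-2.39). Of 29 autophagy genes 10 rose and 2 fell (with 1 library left out, 5 to 10 rising, the fewest without replicate 2 of shFTO and 0 to 2 falling, the fewest without either shFTO library). In the circadian clock 8 of 18 rose and 2 fell, with Dbp, a clock output, at 1.35. Cytosolic ribosomal proteins had 23 of 86 higher and 15 lower, near the background shares (with 1 library left out, 7 to 28 rising, the fewest without replicate 1 of shFTO and 2 to 19 falling, the fewest without replicate 2 of shFTO), and the sign of their median depends on the scaling.

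The same lines were also sequenced as preadipocytes (Pre) and at MCE, in other libraries, so the differences at Diff can be set beside the earlier ones. Of the 1105 genes higher over 2-fold at Diff, 472 (42.7%) were over 2-fold higher at MCE too and 10 over 2-fold lower. Of the 683 lower genes 282 (41.3%) were over 2-fold lower at MCE and 6 higher. At Pre, where 1 shScram library stands apart, the numbers were 439 and 192 in the same direction. Under 2-fold at both earlier stages were 422 (38.2%) of the higher and 305 (44.7%) of the lower genes. Foxp2 and Sis, an intestinal disaccharidase, were lower at all stages, with -5.39 and -4.19 at Diff, -5.12 and -4.66 at MCE and -5.71 and -4.05 at Pre.

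Whether an effect differed between Diff and MCE was tested over 15318 genes, and it did for 2733 of them (17.8%), with 1279 effects higher (8.35%) and 1454 lower (9.49%) at Diff. Between 1279 and 2589 genes passed with 1 library left out, the fewest without replicate 2 of shFTO at MCE. Of the 44 mitosis genes 39 passed, with a median of -0.10 at MCE and 0.97 at Diff. For Ube2c the log2 fold change was -0.082 at MCE and 2.01 at Diff. Genes of DNA replication and histones went the other way. In DNA replication 13 of 36 passed, each with a lower effect at Diff, with medians of 0.60 at MCE and 0.31 at Diff. Of 45 replication-dependent histone genes 13 passed, each with a lower effect at Diff, with medians of 1.38 and 0.47. The interferon-stimulated effectors had like medians at the 2 stages, 1.10 and 1.08, with 13 of 42 called different (10 higher and 3 lower at Diff, Irgm1 among the latter), and a median of 0.12 at Pre. At Pre both lines held more of these transcripts, Stat2 with 214 and 254 TPM with shScram and 212 and 228 TPM with shFTO and Rsad2 with 17.6 and 15.6 TPM with shScram and 69.0 and 81.2 TPM with shFTO. Several fat storage genes had a lower value at Diff. Plin1 changed by -0.60 at MCE and by -3.47 at Diff, and Gpd1 by -0.64 and -3.38, while Pnpla2 changed by -2.31 and -1.35. In cholesterol synthesis 11 of 24 genes passed, with medians of -0.63, 0.47 and 0.78 at Pre, MCE and Diff. Ly6a was at -0.16 at MCE and 2.69 at Diff. Acta2 was at 4.14 at MCE and 1.60 at Diff.

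**Figure D5:**
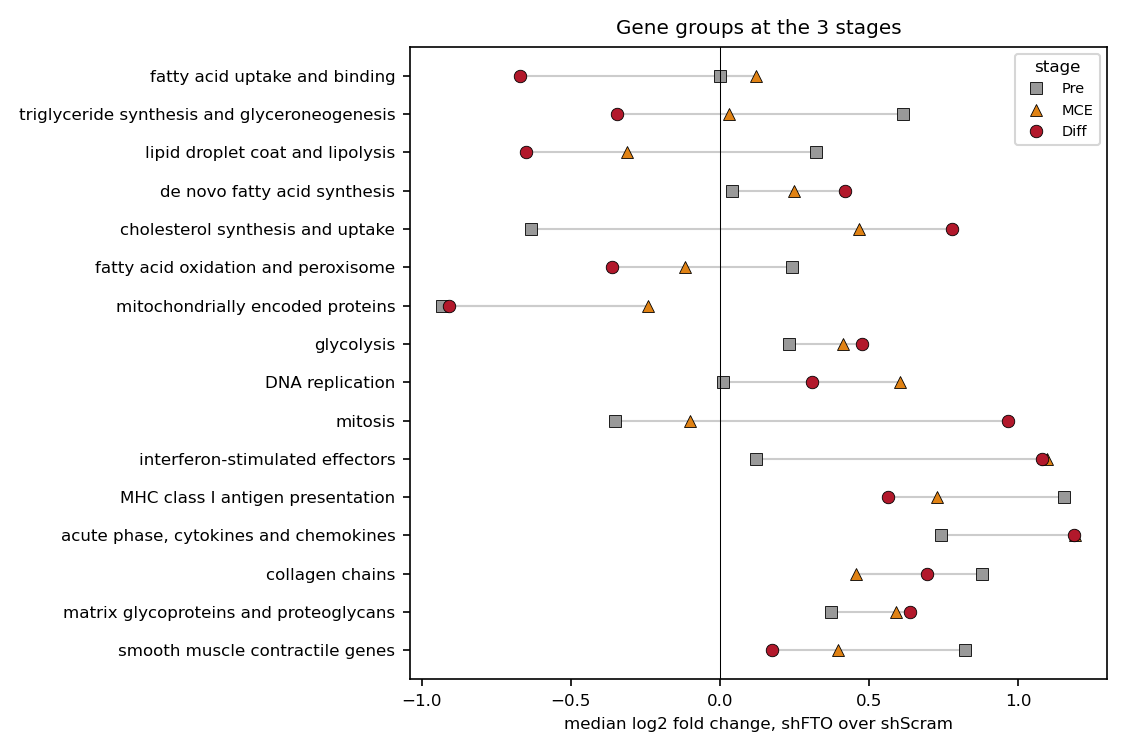
Median log2 fold change of shFTO over shScram (horizontal axis) of 16 gene groups at Pre (squares), MCE (triangles) and Diff (circles), over the members tested at Diff. The mitosis genes move from -0.35 and -0.10 to 0.97, and the interferon-stimulated effectors lie at 0.12, 1.10 and 1.08.

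Some values are uncertain because exons overlap those of a gene on the other strand and the sources used here do not state whether counting used strand. Where that gene held 10% or more of the named gene's level, 12 named genes are affected, which are Prg4 (with Tpr), Srebf1 (Rai1), Stat5a (Stat3), Cebpa (Gm45091), Plin4 (Hdgfl2), Cyp51 (Akap9), Cdc20 (Elovl1), Irf7 (Phrf1), Tap1 (Psmb9), Dbp (Sphk2), Sult1a1 (Sgf29) and Junb (Prdx2). Another 15 overlap a gene at under 10% of their level, namely Cebpb, Rarres2, Lipe, Agpat2, Aldh6a1, Aspn, Bcl3, Gadd45a, Gas1, Hmga2, Itga7, Runx2, Slc2a1, Tnc and Twist2. On the same strand, Irf9 shares exon bases with Rnf31 and Fgfr2 with Ctbp2.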

How the data were processed

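Total RNA of 3T3-L1 cells was sequenced in 12 libraries, of which the 4 at Diff carry the comparison. The authors used Trim Galore 0.6.5 for trimming, HISAT2 2.1.0 for alignment to GRCm38 and StringTie 2.1.4 for abundance, and deposited TPM per Ensembl gene. Depth per library is unknown, since TPM keeps none. Between 23572 and 24018 genes were above 0 in the Diff libraries.

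From the TPM values log2(TPM + 1) was computed, and genes with a TPM of 1 or more in 2 of the 4 libraries entered limma 3.58.1 under R 4.3.3 (1 mean per group, eBayes with trend, 2 residual degrees of freedom), two-sided, with Benjamini-Hochberg adjustment over 14900 genes. The contrast of stages used the 8 libraries of MCE and Diff. The authors' own DESeq2 test needs counts and was not repeated. On simulated data for this comparison (14900 genes), 162 of 200 genes with a set log2 change of 1 and 199 of 200 with a change of 2 were called, with 12 and 13 false calls. Changes were set only in genes with a mean log2(TPM + 1) over 2 with shScram, and independent noise followed the fitted variance. In the real libraries 45.4% of genes were called, so these rates need not hold there or for low genes.

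Gene groups were described by counts and medians with no group test. The members and lists were chosen with earlier results of these data known. Named genes are Fto, the 12 highest and 12 lowest called genes (fold over 2, mean TPM of 5 or more in the higher group, no overlap, no Gm, Rik or pseudogene symbols), up to 6 called genes with the largest change and 3 uncalled ones per group, and other group members for their role. Some genes that this rule names are not reported here. Exon overlaps came from GENCODE release M21, and promoter windows from RefSeq. Python 3.11.15, numpy 2.4.6, pandas 2.3.3 and matplotlib 3.10.9 were used.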

Additional observations from a re-analysis of the deposited data

Results flagged for a closer look

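For 114 of the named genes the log2 fold change of shFTO over shScram differed between Diff and MCE by the interaction test (limma adjusted p under 0.05 over 15318 genes, 8 libraries, 17.8% of all genes called). Each value below is the effect at Diff minus that at MCE. Genes were chosen for naming by their values at Diff, and no explanation was tested.

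In triglyceride synthesis 7 of 15 tested genes had a lower and 0 a higher effect at Diff, and in fatty acid uptake 7 and 3 of 15. Droplet coat and lipolysis had 6 and 2 of 14, and adipokines and receptors 4 and 1 of 14. Over all genes 9.49% had a lower and 8.35% a higher effect. Lower were Adipoq (-3.95), Thrsp (-3.33), Cd36 (-3.15), Plin1 (-2.88), Gpd1 (-2.74), Cfd (-2.36), Cidec (-2.15), G0s2 (-2.06), Rarres2 (-1.46), Lpl (-1.42), Agpat2 (-1.29), Acsl1 (-1.12), Lipe (-0.89), Agt (-0.70), Dgat1 (-0.58), Acsl4 (-0.52), Fabp4 (-0.57), Fasn (-0.52) and Gpihbp1 (-1.52), and higher were Pnpla2 (0.95), Vldlr (0.91), Plin4 (0.61) and Acsl3 (0.46). Mitosis genes had a higher effect at Diff, as Ube2c (2.1), Cdc20 (1.86), Ccnb1 (1.57), Aurka (1.43), Plk1 (1.41), Espl1 (1.36), Aurkb (1.14) and Mki67 (0.92) show, with 39 of 44 called higher and none lower. DNA replication went the other way, with 13 of 36 lower and 0 higher, as did replication-dependent histones, with 13 of 45 lower and 0 higher. Of 42 interferon-stimulated effectors, 10 were higher and 3 lower at Diff, with near-equal medians of 1.10 at MCE and 1.08 at Diff. The named ones with these genes' transducers were Oas2 (1.76), Ifitm3 (1.10), Irf7 (1.00), Ifi44 (0.94), Bst2 (0.89), Ifi204 (0.76) and Stat2 (0.59) and, lower, Irgm1 (-0.75). Sterol genes were higher at Diff too, with Stard4 (0.77), Mvd (0.77), Fdps (0.75) and Sqle (0.63), apart from Cyp51 (-1.12). Acute phase, cytokine and complement genes gave Saa3 (2.54), Il33 (2.37), Hp (1.45), Socs3 (0.89), Serping1 (1.87) and C4b (1.34), and, lower, Ccl9 (-1.08). Matrix and contractile genes differed both ways, with Acta2 (-2.53), Ogn (-1.89), Sparcl1 (-1.67), Adamts12 (-1.60), Postn (-1.35), Aspn (-1.18), Col11a1 (-0.83), Col3a1 (-0.77), Abi3bp (-0.75), Timp1 (-0.61), Sparc (-0.59), Tnc (-0.54) and Col5a2 (-0.33) lower and Timp3 (1.04), Fbn1 (1.31), Col28a1 (1.36), Adamts5 (1.66) and Prg4 (2.01) higher at Diff. The other lower ones were Sult1a1 (-3.37), Car3 (-3.03), Ptgds (-2.51), Adh1 (-2.27), Fam107a (-2.12), Cat (-1.97), Ephx2 (-1.44), Inhba (-1.39), Twist2 (-1.26), Aldh3a1 (-1.12), mt-Nd2 (-1.11), Fgfr2 (-0.94), Syt13 (-0.92), Id1 (-0.72), Klhl4 (-0.65), Gas1 (-0.65), Idh3a (-0.60) and Ldhb (-0.54). The other higher ones were Il1rl1 (0.39), Hgf (0.44), Klf9 (0.61), Rxra (0.62), Bcl3 (0.66), Elovl5 (0.71), Dkk3 (0.75), Cdkn2d (0.77), Itga7 (0.91), Gadd45a (0.95), Dio2 (1.06), Igfbp3 (1.07), Cebpa (1.07), Hsd11b1 (1.14), Hmga2 (1.27), Chac1 (1.37), Klf2 (1.62), Tnnt3 (1.87), Fmo2 (1.93), Met (2.09), Slpi (2.13), H19 (2.62), Dbp (2.77), Ly6a (2.85), Pim1 (2.92), Igf2 (2.97) and Ly6c1 (3.40). Gpihbp1 and Igfbp3 were listed at 0 in 1 group at Diff, so the size of their values depends on the pseudocount. Some fat cell genes were also low at MCE, where an effect could hardly show. At MCE with shScram, Adipoq held 0.817 and 0.791 TPM and Thrsp 1.63 and 1.93 TPM, and Gpihbp1 was listed at 0 in every MCE library. For such genes the value largely repeats the effect at Diff.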

How the results depend on the processing

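The alternatives run were pseudocounts of 0.1 and 5, no filter, a mean TPM of 5 or more, median-ratio scaling, quantile normalization, totals rescaled without mitochondrial genes, 12 or 8 libraries in the fit, no trend, the replicate number as a block, and each library left out. Of 3745 higher and 3026 lower genes by limma, 2481 and 1891 were left with no filter, when 29418 genes were tested, and 1901 and 1489 with all 12 libraries in the fit. The counts over 2-fold, 1105 and 683, became 495 and 281 at a pseudocount of 5 and 674 and 376 with a mean TPM of 5 or more. With 1 library left out, the ranges were 1869 to 3744 higher and 1456 to 2806 lower genes, 999 to 1197 and 631 to 739 over 2-fold, and -3.18 to -3.11 for Fto. Effects that differed between Diff and MCE numbered 424 with 12 libraries, against 2733, and 1279 to 2589 with 1 library left out. Of the gene groups, 21 had most of their tested members (over 50%) called in one direction, 10 with no filter, 4 with 12 libraries and 6 to 21 with 1 library left out. Of the 177 named genes, 160 kept direction and side of the threshold in all alternatives run. Cxcl12, which did not pass the test (-0.04), ranged from -0.096 to 0.015 with 1 library left out (above 0 without replicate 1 of shScram), no other named gene changed direction, and 13 lost their call with 12 libraries, among them Srebf1, Rxra, Cebpb, Fasn and Bst2. Replicate numbers share only a number (the correlation of deviations was -0.02), and the replicate block left 3671 higher and 2925 lower genes and 2224 stage differences. The cause of these shifts was not tested, apart from the number of genes or libraries each alternative holds. Precision is limited by the 2 libraries of each group, and TPM do not tell the depth.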

Other observations

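Genes outside the groups above, chosen after their values were seen, also differed between the lines at Diff by limma with adjusted p under 0.05. Met, the receptor of hepatocyte growth factor, held 14.3 and 15.0 TPM with shScram and 233 and 245 TPM with shFTO (3.94), and its ligand Hgf held 17.1 and 15.8 TPM with shScram and 79.4 and 80.8 TPM with shFTO (2.22). Il1rl1, the receptor of IL-33, held 23.4 and 22.4 TPM with shScram and 168 and 177 TPM with shFTO (2.86), beside the change of Il33 given above. Both values of shFTO lay above both of shScram for each of these genes, which follows from how they were chosen and is no separate result. Pim1, Junb and Bcl3, which are known targets of STAT3, rose by 3.49, 2.36 and 2.26, and Pim1 held 1.65 and 2.18 TPM with shScram and 30.3 and 33.1 TPM with shFTO. Other targets of STAT3 were not counted, and its activity was not tested. Junb shares exon bases with the more abundant Prdx2, so its value is uncertain. Slpi, a secreted protease inhibitor, held 22.7 and 23.1 TPM with shScram and 307 and 303 TPM with shFTO (3.68), and Hsd11b1, which regenerates active glucocorticoid in fat cells, held 10.0 and 11.0 TPM with shScram and 154 and 165 TPM with shFTO (3.80). Klf2, a zinc finger factor that represses Pparg, rose by 2.90, and Hmga2, a chromatin protein of growing mesenchymal cells, by 1.91.

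Other genes were lower. Car3, a carbonic anhydrase, held 14.6 and 17.8 TPM with shScram and 0.493 and 0.0840 TPM with shFTO (-3.75), and Adh1, an alcohol dehydrogenase, held 16.7 and 14.0 TPM with shScram and 1.62 and 1.90 TPM with shFTO (-2.56). Ephx2, the soluble epoxide hydrolase, changed by -1.85 and Ptgds, a prostaglandin D synthase, by -3.58. Fgfr2, a fibroblast growth factor receptor, held 75.7 and 77.0 TPM with shScram and 8.13 and 9.70 TPM with shFTO (-2.97), and Twist2, a mesenchymal transcription factor, held 195 and 197 TPM with shScram and 42.4 and 61.1 TPM with shFTO (-1.92).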
